A study of Mus musculus with 2 samples.

Results

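The NR4A orphan nuclear receptors were examined in mouse cells labelled GT1-7 after exposure to gonadotropin-releasing hormone (GnRH). The members were taken by name: all non-control spots whose gene name in the scanner files was Nr4a1, Nr4a2 or Nr4a3. They gave 3 genes with 13 spots of 4 probe designs, out of 35019 gene or probe names, 59305 non-control spots of 55681 probe designs. Nr4a1 had 1 probe on 1 spot, Nr4a2 had 2 probes on 1 spot each, and Nr4a3 had 1 probe on 10 spots.

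The study held 2 one-colour (Cy3) arrays of total RNA, 1 per group. For the vehicle group cells were kept with DMSO for 30 min, and for the GnRH group with 50 nM GnRH over the same time. GT1-7 is a clonal mouse hypothalamic neuron line immortalised by a viral T antigen driven by a GnRH gene promoter. The free-text description of both samples names 100 nM bradykinin and A549 cells instead, and the groups here follow the treatment labels. Each group is a single array, so no difference below has a replicate or a test, and the array number limits precision. The software marked 55.2% (vehicle) and 56.9% (GnRH) of non-control spots as well above background and 0 as saturated. Of the 7 markers of GnRH neurons, 4 were well above background on both arrays. The defining gene Gnrh1 was not on either, nor were Six6 and Nhlh2. Of those that passed, Isl1 had signals of 2457 with vehicle and 2479 with GnRH, while Kiss1r, Otx2 and Dlx5 were dim (21.7 to 81.9). Of the 7 gonadotrope markers 6 passed on both arrays. Among them were Cga (signal 80508 with vehicle and 69481 with GnRH), the GnRH receptor gene Gnrhr (14861 and 13656) and Nr5a1 (33412 and 28614). Lhb passed too but was dim (71.5 with vehicle and 72.1 with GnRH). The marker that failed to pass was Fshb (3.80 and 5.69). The cells are called by their label here. In bulk RNA, fewer cells of a type and less RNA per cell cannot be told apart. Summed marker signal, like the signals above, is given before scaling, and the 75th percentile was 578 with vehicle and 541 with GnRH. The sum was 1013 with vehicle and 921 with GnRH for astrocyte markers (3 and 4 of 5 well above background), and 6209 and 5326 for oligodendrocyte markers (4 of 4 on both). It was 6606 and 6084 for microglia and macrophage markers (3 of 4 on both), and 1687 and 1486 for fibroblast and endothelial markers (3 of 5 on both). Markers of other pituitary lineages summed to 48.4 and 1085, with 0 and 2 of 6 well above background, and Tbx19 alone gave 1048 of the latter. The spot of Tbx19 lay in an area of the array where neighbouring spots differ together, while 0 of the 13 NR4A spots did. The part of these markers in the NR4A values was not tested.

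The NR4A proteins are transcription factors of the nuclear receptor superfamily for which no classical hormone ligand is established, so their activity is set largely by how much of them is made. They bind DNA as monomers at the NBRE, an extended half-site, or as dimers, and Nr4a1 and Nr4a2 can also pair with the retinoid X receptors. Their genes are immediate-early genes, whose transcription starts within minutes of a stimulus without new protein synthesis, through CREB at cAMP response elements (CREs) and, for Nr4a1, also through MEF2 factors. Nr4a1 (Nur77) is known in the pituitary and adrenal for hormone-driven induction. Nr4a2 (Nurr1) is best known for the development and upkeep of midbrain dopamine neurons. Nr4a3 (NOR-1) is known from muscle, blood vessels and blood cell progenitors.

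The 4 probes are shown because each value below rests on what its probe can detect. They are printed 5′ to 3′ as the scanner files list them, in lower case with no part marked, and for the Nr4a1 probe and the second Nr4a2 probe only their first 30 bases are given.

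Nr4a1, A_51_P239654: ctcttccgctctccttccatgtgtacataa

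Nr4a2, A_52_P494622: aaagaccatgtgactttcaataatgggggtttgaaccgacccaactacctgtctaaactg

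Nr4a2, A_55_P1983508: aagggacacatagtgtttgtaacaccgccc

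Nr4a3, A_51_P128397: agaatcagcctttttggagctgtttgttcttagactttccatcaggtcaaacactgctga

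The files give coordinates in build mm9. The Nr4a1 probe (transcript NM_010444) lay at chr15:101105071-101105130. The Nr4a2 probes (NM_013613) lay at chr2:56960699-56960758 and chr2:56959637-56959696, both listed in descending order. They start at positions 2050 and 3112 of the transcript, 1062 bases apart there as in the genome, and are called the upstream and the downstream probe. The Nr4a3 probe (NM_015743) was listed at chr4:48080690-48083876, a span of 3187 bases for a probe of 60, so its bases are not contiguous in the genome. An mm9 annotation was not used here, and exons and untranslated regions are not assigned. The longest run of identical bases shared by any 2 of these probes was 7, and 0 other probes of the array shared a run of 20 bases with one of them on either strand.

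Nr4a1 was the member with a large difference between the arrays. Its processed signal, the spot brightness after the scanner software had subtracted background and detrended the array, was 17380 ± 1738 (scanner error) with vehicle and 78369 ± 7837 with GnRH. After each array was scaled to its 75th percentile, the normalized log2 level was 4.91 with vehicle and 7.18 with GnRH. The log2 difference, GnRH minus vehicle, was 2.27 ± 0.20 (scanner error), or 4.82-fold higher. The spot was thus bright with vehicle and brighter with GnRH. The ratio of the signals before scaling was 4.51.

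The Nr4a1 value rests on 1 spot per array, read over 47 pixels with vehicle and 44 with GnRH. Pixels within the spot varied by a coefficient of variation of 15.7% and 11.9%. Taken from the median pixel in place of the processed signal, the log2 difference was 2.29. Neither spot was marked as an outlier or as saturated, and the median log2 difference of the spots around it was -0.08. Among probes printed 10 times, 143 had every spot well above background and a signal of at least 1000. The log2 differences of single spots of these probes had an SD of 0.04 (median over the probes) and of at most 0.13. The Nr4a1 difference was larger than the scanner error and this spread between spots. Neither of these includes variation between cultures.

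**Figure D1:**
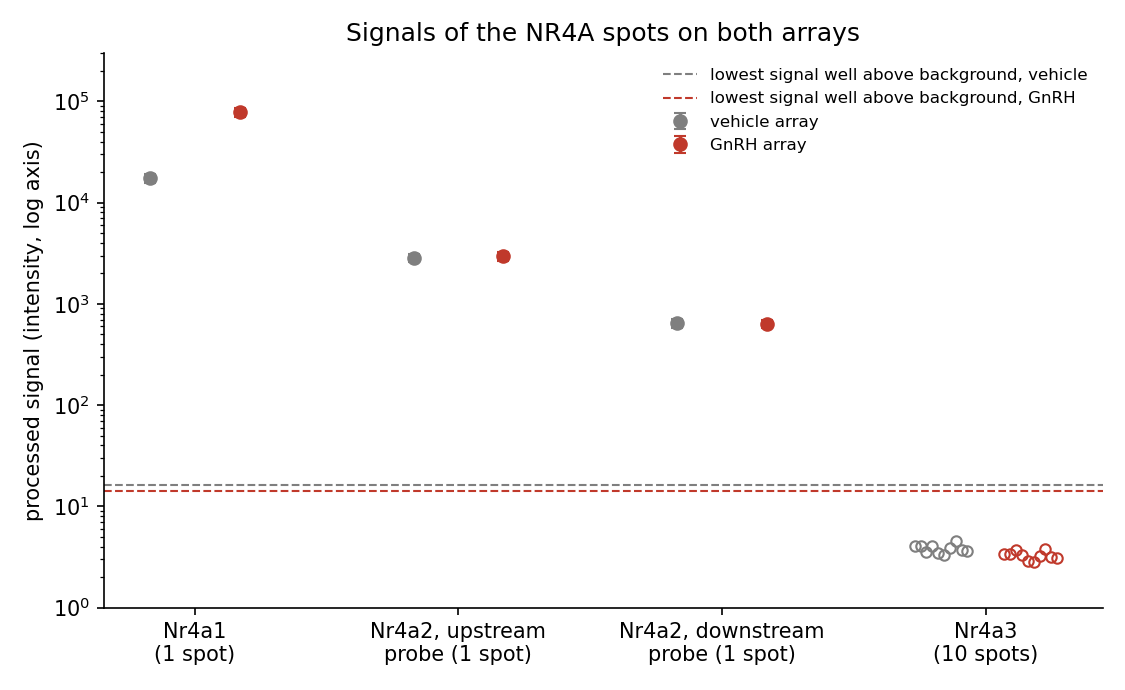
Processed signal (intensity, log axis) of the 13 NR4A spots on the vehicle array (grey) and the GnRH array (red); error bars, mostly hidden by the points, are the scanner software's error, open circles are the 10 Nr4a3 spots, and dashed lines mark the lowest signal well above background on each array. Nr4a1 stands at 17380 and 78369, each Nr4a2 probe is nearly level between the arrays, and all Nr4a3 spots lie below the dashed lines; levels of different probes are not comparable.

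Nr4a2 was well above background on both arrays with both probes, and neither probe differed by more than the scanner error after scaling. The upstream probe, A_52_P494622, had processed signals of 2844 ± 284 with vehicle and 2954 ± 295 with GnRH, a log2 difference of 0.15 ± 0.20. The downstream probe, A_55_P1983508, had 640 ± 64.1 and 636 ± 63.7, a log2 difference of 0.09 ± 0.20. The 2 probes thus gave differences within 0.06 ± 0.29 of each other.

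Before scaling, the ratio of GnRH to vehicle was 1.04 for the upstream Nr4a2 probe and 0.994 for the downstream one, so the sign for the latter depended on the scaling. With no scaling between arrays the value for Nr4a2 was 0.05, while the median over all measured genes moved to -0.10. The spots around the upstream probe had a median log2 difference of -0.14. Relative to them Nr4a2 was at 0.29, more than the scanner error. Of all measured genes, 25.2% differed by at least as much as Nr4a2 in either direction. With 1 array per group, a difference of Nr4a2 smaller than the scanner error cannot be told from none. The upstream probe's 0.15 was above the largest SD between spots of bright probes (0.13), which leaves out variation between cultures. The downstream probe, dimmer than those probes, was at 0.09.

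Nr4a3 passed the background mark on neither array. Its 10 spots had a mean brightness, before background subtraction, of 63.8 to 76.2 on the vehicle array (median 70.5) and of 63.3 to 73.8 on the GnRH array (median 68.9). The background the software subtracted at the same spots was 70.9 to 73.7 (median 72.9) and 68.6 to 74.9 (median 71.6). Spot and background brightness therefore overlapped on both arrays, and 3 of the 10 spots were brighter on the GnRH array than on the vehicle array.

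After subtraction the Nr4a3 spots ranged from -7.32 to 2.51 with vehicle and from -6.43 to 3.97 with GnRH. The software replaced such values with a surrogate in 10 of 10 spots and 9 of 10 spots. The processed signals, 3.33 to 4.53 and 2.84 to 3.76, are for the most part these surrogates and carry no order between the arrays. No spot was well above background, and 1 spot of the GnRH array passed the looser mark of a positive and significant signal. The lowest signal well above background of any probe was 16.3 with vehicle and 14.1 with GnRH. No fold is given for Nr4a3, since both arrays lay below background. A transcript that gives less than those signals with this probe was not detectable, and the array had 1 Nr4a3 probe design, so a second probe could not be set beside it. The file header's detection limit metric was 2.03 on the vehicle array, which it marks as out of range, and 0.715 on the GnRH array. Of the 399 probes printed 10 times, 139 did not have every spot well above background on both arrays, the Nr4a3 probe among them.

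**Figure D2:**
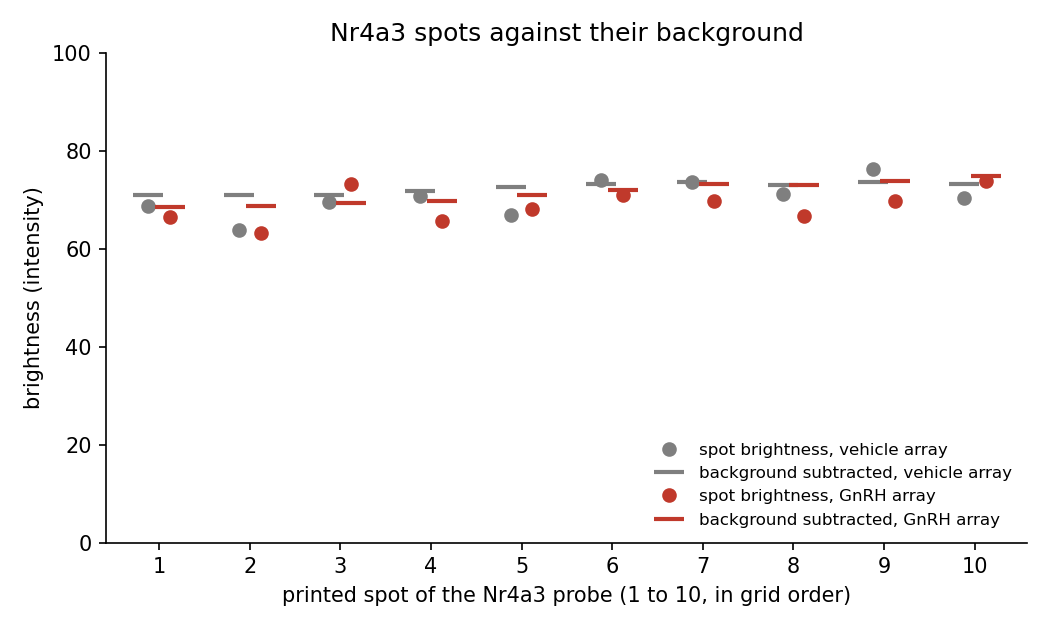
Mean brightness of each of the 10 Nr4a3 spots (points) and the background the software subtracted there (bars), in intensity units, for the vehicle array (grey) and the GnRH array (red). Points and bars overlap in both arrays, with spot brightness from 63.8 to 76.2 (vehicle) and from 63.3 to 73.8 (GnRH).

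Of the 3 genes, 2 were measured on both arrays, 1 was past 2-fold on the higher side (GnRH over vehicle) and 0 on the lower. Among the 21219 genes measured, the share past 2-fold was 0.311% (66 genes) on the higher side and 0.132% (28 genes) on the lower, and the median log2 difference was -0.01. With no scaling between arrays the split was 54 to 36. The log2 difference of Nr4a1 exceeded that of Nr4a2 by 2.12 ± 0.29 (scanner error), a 4.34-fold larger ratio, and this gap was larger than the scanner error. The order of the differences was therefore Nr4a1 above Nr4a2, and Nr4a3 has no place in it.

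On the higher side, Nr4a1 had the 22nd largest difference of all measured genes, and 0.137% of them differed by at least as much in either direction. Without the 3 areas of the array where neighbouring spots differ together (625 non-control spots), it was the 13th largest on the higher side of 21068 genes. The genes nearest to it in log2 difference, over the single comparison of 2 arrays and among 11946 genes, were Btg2, Spry4 and Ccn1. Btg2, an antiproliferative gene, differed by 2.29 ± 0.20, Spry4, an inhibitor of receptor tyrosine kinase signalling, by 2.02 ± 0.21, and the matricellular gene Ccn1 by 2.59 ± 0.20.

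**Figure D3:**
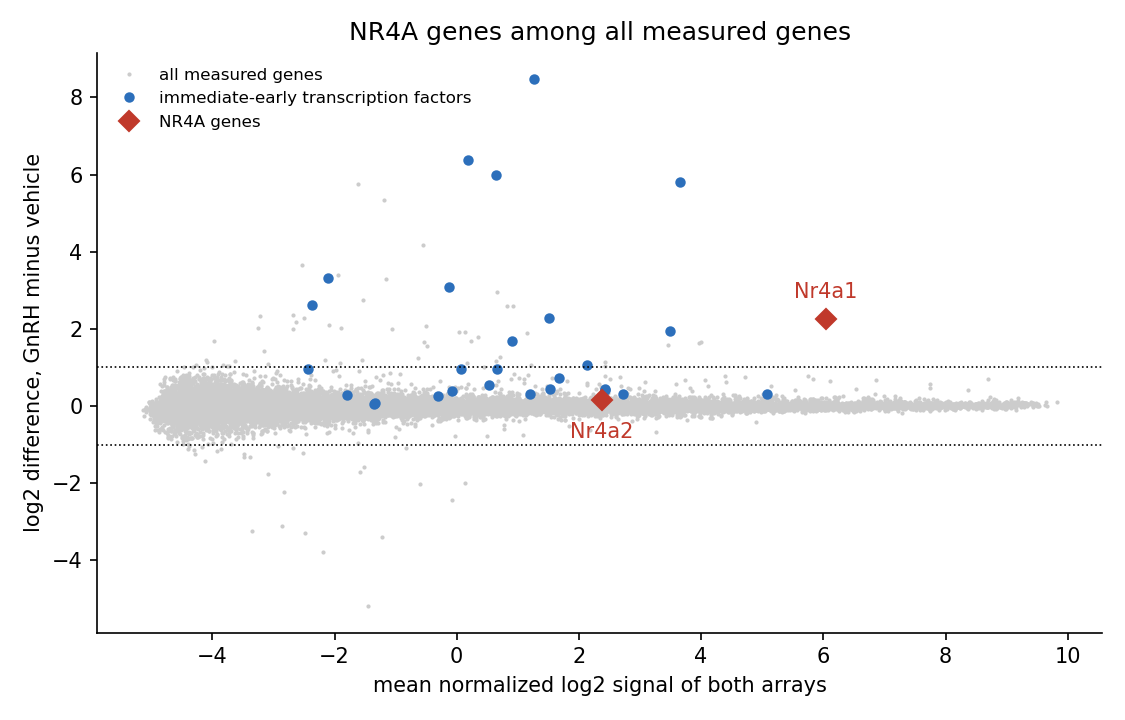
Log2 difference (GnRH minus vehicle) of each of the 21219 measured genes against its mean normalized log2 signal on both arrays. Grey points are all genes, blue points listed immediate-early genes (mostly transcription factors), red diamonds the NR4A genes and dotted lines mark 2-fold. Nr4a1 (2.27) lies outside the grey band at high signal and Nr4a2 (0.15) lies inside it.

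The NR4A genes were then set among other immediate-early genes, mostly transcription factors. This list had 31 genes, among them the antiproliferative gene Btg2, and 27 were measured on both arrays. Of these 27 genes, 11 were past 2-fold on the higher side and 0 on the lower (0.311% and 0.132% of all measured genes). The median log2 difference of the 27 was 0.95. Those 11 were Egr1 (8.47), Fosb (6.36), Fos (5.98), Npas4 (5.80), Junb (3.31), Ier2 (3.09), Maff (2.62), Btg2 (2.29), Jun (1.93), Atf3 (1.67) and Srf (1.07). Egr2 passed the background mark with GnRH alone, where after scaling it was 143-fold above the dimmest signal to pass that mark with vehicle. Egr3, Egr4 and Fosl1 passed on neither array.

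Among the 28 genes measured on both arrays when it is counted with this list, which leaves out Egr2, Nr4a1 was the 9th by log2 difference and Nr4a2 the 26th, above only Myc (0.08) and Id2 (0.06). Nr4a1 and its neighbour Btg2 differed by 0.02 ± 0.29, less than the scanner error. Nr4a1 minus the AP-1 subunit gene Jun, the next below, was 0.33 ± 0.29. Nr4a1 minus the small MAF factor gene Maff, above both, was -0.35 ± 0.32. Each gap was little larger than its error. All NR4A and immediate-early values here are differences and not levels, since probes of different genes cannot be compared in brightness.

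RNA of genes that act upstream of the Nr4a genes was near level. The activity of their proteins was not measured. Over all measured genes, 0.311% were at least 2-fold higher and 0.132% lower. Of a list of 42 kinases and transcription factors, 40 were measured, with a median log2 difference of -0.01. Among the 40, 1 was at least 2-fold higher and 0 lower. Srf, which encodes serum response factor, was the one, at 1.07 ± 0.20 from its brightest probe and 1.56 ± 0.20 from the second. Without scaling the brightest Srf probe was short of 2-fold and the count, which rests on that probe, was 0, while the second probe had signals of 1199 and 3321. Sik1, a CREB-induced kinase that restrains the CREB coactivators, followed at 0.48 ± 0.21. Crem, which encodes a CREB-family factor, was at 0.34 ± 0.21, with 0.37 on its other probe. Mef2a, which encodes a MEF2 factor, was at 0.20 ± 0.20, with 0.18 and 0.41 on its other probes. Mef2c and Nfatc2 were not well above background on either array.

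All 26 partners and coregulators of the NR4A proteins were measured, with a median of 0.02. Of them, 1 was at least 2-fold higher and 0 lower (0.311% and 0.132% of all measured genes). Fhl2, a LIM-domain protein that binds Nr4a1 and represses its activity, had signals of 239 with vehicle and 660 with GnRH, a log2 difference of 1.56 ± 0.21. The coactivator genes Ppargc1a (0.38 ± 0.29) and Ppargc1b (0.37 ± 0.23) came next, at signals of 31.1 to 80.4. Rxra, which encodes a retinoid X receptor, was at 0.28 ± 0.24 from its brightest probe and at -0.31 ± 0.28 from the second, so its probes disagreed in sign.

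Of the 46 nuclear receptor genes outside the NR4A group, 34 were measured and 0 differed 2-fold in either direction, with a median of -0.01. By each gene's brightest probe, the range ran from -0.50 ± 0.31 for Rora, a retinoid-related orphan receptor, to 0.36 ± 0.20 for Nr1d1, the circadian repressor REV-ERB alpha. Nr1i3, the xenobiotic receptor CAR, was at -0.40 ± 0.23. The probes of Esr1, an estrogen receptor gene, disagreed: its brightest was at -0.02 ± 0.06, and a dim one (signals 52.3 and 25.1) lay outside that range at -0.96 ± 0.29. The brightest probe of Thra was at -0.05 ± 0.20, and its second probe lay just outside the range at 0.37 ± 0.21. Of the rest, 10 were not well above background on either array, and Esrrg passed on each array with a different probe. Esrrb passed on the GnRH array only, where its scaled signal was 1.07-fold that on the vehicle array. Among the measured nuclear receptor genes, Nr4a2 included, Nr4a1 was thus the only one past 2-fold under the scaling used here. Of all measured genes, 0.311% were past it on the higher side and 0.132% on the lower. A count of 0 among the 34 others is near that share.

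Genes known as targets of NR4A factors in other tissues were mostly level at this time. Of 27 genes, 19 were measured, 1 was at least 2-fold higher and 0 lower (0.311% and 0.132% of all measured genes). Their median over the 19 was -0.02. Bdnf, which encodes a neurotrophin, was at 0.60 ± 0.21, Tnfsf10, which encodes the death ligand TRAIL, at 0.51 ± 0.31, and Nfkbia, which encodes an inhibitor of NF-kB, at 0.45 ± 0.20. Some targets are known from dopamine neurons or steroid-producing cells. The lowest of these measured on both arrays were the vesicular transporter gene Slc18a2 (-0.30 ± 0.21) and the steroidogenic gene Star (-0.32 ± 0.29). Star was dim, with signals of 37.5 and 28.0. Nearer to level were Aldh1a1 (-0.17), Cyp17a1 (-0.03), Th (-0.02) and Cyp21a1 (0.03). Slc6a3, the dopamine transporter gene, passed the background mark with vehicle alone, and its spot lay in one of the 3 areas. After scaling, its vehicle signal was 2.07-fold above the dimmest signal to pass with GnRH (14.1). That is not a strict limit, since Ret failed the mark at 16.5 with GnRH. Pomc passed the mark on neither array.

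**Figure D4:**
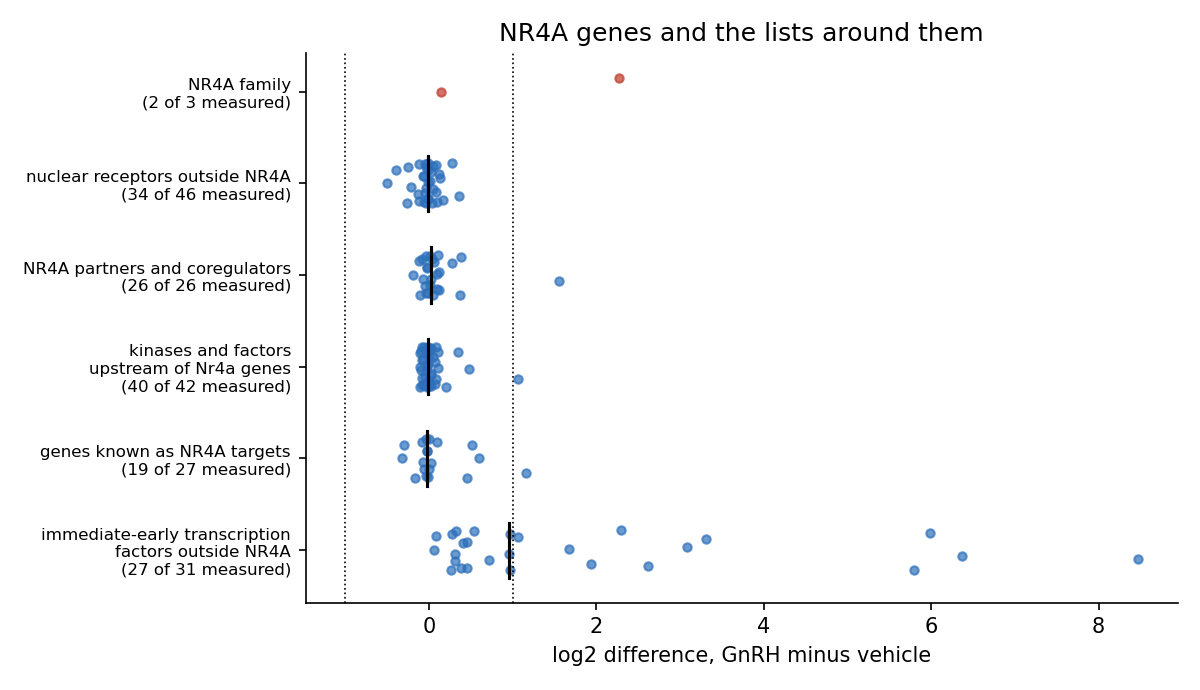
Log2 difference (GnRH minus vehicle) of each measured gene (points) in the NR4A family and in the 5 lists around it, with the median of each list as a black bar and dotted lines at 2-fold. The immediate-early list has its median at 0.95, the other 4 lists have theirs between -0.02 and 0.02 with at most 1 gene each past 2-fold.

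The genes that lie beside the NR4A genes were examined next, 3 protein-coding genes on either side by the order of the RefSeq table (GRCm38.p6), a choice made after the data were seen. Of 18 neighbours 15 were measured, with log2 differences from -0.25 to 0.51, and 0 were at least 2-fold different. Few of all measured genes were (0.311% higher and 0.132% lower), so a count of 0 is near that share. Beside Nr4a1, Grasp was at 0.07 ± 0.20 and Atg101 at -0.05 ± 0.20. The highest was Kcnj3, a potassium channel gene beside Nr4a2, at 0.51 ± 0.30. The 5 measured neighbours of Nr4a1 lay between -0.05 and 0.07.

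The 250 bases before each listed transcript start are shown because CREB acts on these genes through CREs. The sequences are from RefSeq (GRCm38.p6), read 5′ to 3′ on the strand of the gene, with CRE half-sites in capitals (TGACG on the strand shown, CGTCA where the half-site is on the other). They lie at chr15:101266596-101266845 (plus strand) for Nr4a1, chr2:57124004-57124253 (minus strand) for Nr4a2 and chr4:48045055-48045304 (plus strand) for Nr4a3. All 3 members matched the table by symbol.

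Nr4a1: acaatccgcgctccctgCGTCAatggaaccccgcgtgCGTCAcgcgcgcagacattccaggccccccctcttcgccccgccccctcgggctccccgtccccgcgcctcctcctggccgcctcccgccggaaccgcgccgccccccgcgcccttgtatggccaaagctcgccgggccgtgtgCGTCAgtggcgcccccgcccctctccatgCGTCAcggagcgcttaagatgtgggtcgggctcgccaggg

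Nr4a2: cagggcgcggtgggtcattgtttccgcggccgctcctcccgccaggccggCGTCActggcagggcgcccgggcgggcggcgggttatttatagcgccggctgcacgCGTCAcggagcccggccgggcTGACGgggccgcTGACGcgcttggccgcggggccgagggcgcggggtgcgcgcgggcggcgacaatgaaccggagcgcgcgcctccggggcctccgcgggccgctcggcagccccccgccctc

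Nr4a3: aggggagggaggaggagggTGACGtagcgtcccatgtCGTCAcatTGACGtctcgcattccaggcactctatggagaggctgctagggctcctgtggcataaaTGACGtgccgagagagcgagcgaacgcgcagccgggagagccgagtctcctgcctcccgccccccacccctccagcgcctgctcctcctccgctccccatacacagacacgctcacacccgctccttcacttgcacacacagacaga

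Each of the 3 windows held 4 half-sites. Of 32851 windows of the same length in the table, 17.8% held at least 1 half-site on either strand and 0.137% (45) held at least 4, the 3 NR4A windows among them. The motif holds a CpG, and the NR4A windows were rich in G and C (74.4% for Nr4a1, 80% for Nr4a2 and 63.6% for Nr4a3, against a median of 52.4%). Counted from the start, the half-sites of Nr4a1 began at -233, -213, -69 and -40. Those of Nr4a2 began at -200, -144, -123 and -111, and those of Nr4a3 at -231, -213, -205 and -147. The half-sites nearest the start were thus those of Nr4a1.

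Other motifs searched on both strands were the full CRE TGACGTCA (which holds 2 overlapping half-sites), the NBRE AAAGGTCA, the AP-1 site TGANTCA, the TATA box TATAAA and the CArG box bound by serum response factor. The full CRE, the NBRE, the AP-1 site and the CArG box had 0 matches in the 3 windows, against 1.55%, 1.34%, 6.75% and 1.47% of all windows with at least 1. The TATA box had 1 match, on the opposite strand in Nr4a2, against 12.4% of all windows. A match is a description of letters and not of binding. The motifs were chosen after the values were seen.

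Nr4a1 and Nr4a2 held the same number of half-sites, with log2 differences of 2.27 ± 0.20 and 0.15 ± 0.20. Of 11569 measured genes with a window, 36 had at least 4 half-sites, and 1 of those 36, Nr4a1 itself, was at least 2-fold higher. Among 3301 genes with 1 to 3 half-sites, 12 (0.364%) were at least 2-fold higher and 4 lower. Among 8232 genes with none, 19 (0.231%) were higher and 4 lower. These groups were not matched for G and C content, and a link between half-sites and the differences was not tested.

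**Figure D5:**
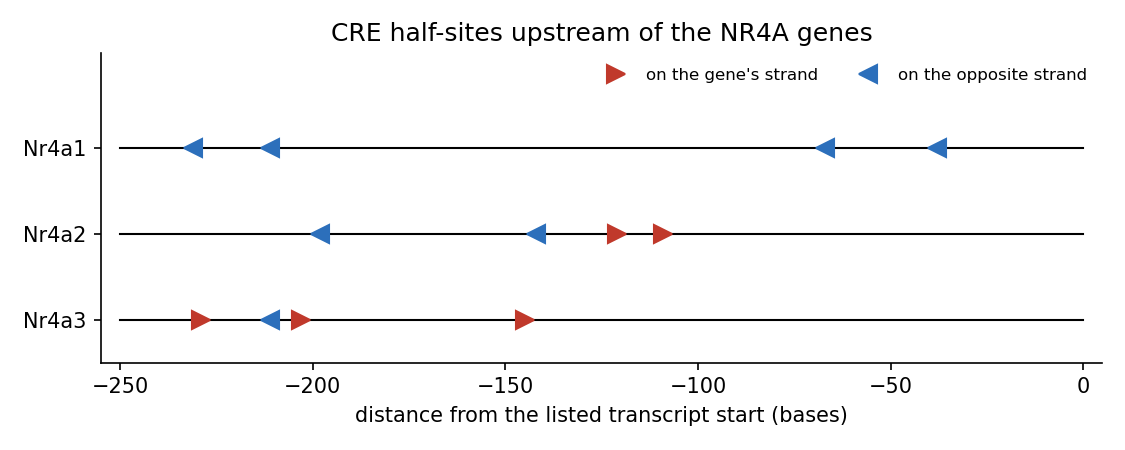
Position of each CRE half-site in the 250 bases before the listed transcript start of the 3 NR4A genes, in bases from the start; right-pointing red marks are on the strand of the gene and left-pointing blue marks on the opposite strand. Each gene has 4 half-sites, and only Nr4a1 has any within 100 bases of the start, at -69 and -40.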

How the data were processed

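RNA was extracted with a column kit and turned into Cy3-labelled cRNA, per the labels' protocols. Spot intensity (linear) in the deposited files was background-subtracted and detrended by Feature Extraction 10.7.1.1, per the file headers, while 9.5.1.1 stands in the submitters' processing notes. The authors' deposited value table also holds linear intensity, by probe; how it was normalized is not given in the sources used here.

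Controls and outlier-marked spots were removed, log2 processed signals of a probe's spots were averaged, and each array's 75th percentile was subtracted (578 for vehicle and 541 for GnRH). The background mark had to be on at least 50% of a probe's spots, and a gene was read from the brightest of its probes that passed on both arrays. The RefSeq table named 27235 of the 55681 probes by accession, and the others kept the file's name. Errors are the scanner software's, combined over both arrays. For areas, spots whose neighbours within 2 rows and columns had a median log2 difference of at least 0.3 in size were joined where at least 4 touched, and widened by 2 spots.

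The members, gene lists and threshold of 2-fold were chosen with earlier results of these data known. Named genes were the members, up to 4 genes of each list with the largest differences plus those past 2-fold, the 3 genes nearest to a member past 2-fold, and identity checks; other genes were chosen after their values were seen. The gene of the target list past 2-fold is not reported here. Steps were tested on simulated data. Software was Python 3.11.15, pandas 2.3.3, numpy 2.4.6, scipy 1.17.1, statsmodels 0.14.6, R 4.3.3 and limma 3.58.1 (normexp only).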

Additional observations from a re-analysis of the deposited data

How the results depend on the processing

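Nr4a1 stayed between 2.17 and 2.35 (log2 difference) under 12 alternatives of scaling, background correction, source of values, outlier spots, probe rule, filter and neighbouring spots, and its gap to Nr4a2 between 2.06 and 2.18 under 13. Since Nr4a1 had 1 probe on 1 bright, unmarked spot, the outlier, probe-rule and filter alternatives could not change its value (2.27 in each). Nr4a2 ranged from 0.05 to 0.29 under 13, each within the scanner error of its main value of 0.15 ± 0.20. Set against neighbouring spots it was at 0.29, a difference larger than the scanner error. In the authors' deposited table Nr4a1 had 16815 for vehicle and 80594 for GnRH, and Nr4a3 had 3.54 for both. Nr4a1 was the 1 member past the threshold under all 15 alternatives for that count, at 1.5-fold and 3-fold too. Leaving out the areas could not change that count, since no NR4A spot lay in one. Nr4a3 was not above background under the looser background call either, so it has no value to compare. Comparing signals with no scaling between arrays was added after the data were seen; the count of upstream kinases and factors was 0 there. At 3-fold it was 0, as were those of partners and of targets. The count of targets was 2 at 1.5-fold, 2 with the looser background call and 5 (4 of them higher) with no filter on dim probes, where 2 other nuclear receptors passed. These settings change the threshold or which genes are measured; without scaling, each difference is lower by a constant. The immediate-early count stayed between 10 and 15. Over all genes, 66 higher and 28 lower became 46 and 12 with normexp, 47 and 12 with no background correction, 1259 and 760 with no filter, 552 and 311 with the looser call, 45 and 9 with a stricter filter, 253 and 187 at 1.5-fold, 40 and 13 at 3-fold and 45 and 14 without the areas. Signal over background limits Nr4a3 and the dim receptors. No paired analysis was possible because each group had 1 array.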
